A study of Chlamydomonas reinhardtii with 8 samples.

Results

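The Calvin cycle enzymes described here are 9 nuclear genes of the green alga Chlamydomonas reinhardtii, out of 17737 genes in the deposited table. They were chosen by name from a list of 10 symbols (RBCS1, RBCS2, RCA1, PRK1, PGK1, FBP1, SEBP1, TRK1, RPE1 and RPI1), each looked up in the table's symbol column, where SEBP1 was not found. All 9 passed the filter on low values and had a usable estimate in all 8 conditions, giving 72 values. Strain CC-4532 was grown with acetate in continuous light in every condition. The zinc-deficient state (0 h) was a second successive culture without added zinc, and such cultures were given 2.5 µM zinc and sampled at 5 times, at 1.5, 3 and 4.5 h and then after 12 and 24 h. Zinc-replete cultures, named late and early in the labels, are the reference for deficiency, and no culture was handled alike without zinc being returned. The comparisons ask which transcripts differ in deficiency and how they return once zinc is available.

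The Calvin cycle fixes carbon dioxide in the chloroplast in a carboxylation, a reduction and a regeneration stage. Rubisco, built of a plastid-encoded large subunit and a nuclear-encoded small subunit, carboxylates ribulose bisphosphate. Phosphoglycerate kinase and glyceraldehyde phosphate dehydrogenase then reduce the product to triose phosphate, and aldolases, phosphatases, transketolase, an isomerase, an epimerase and phosphoribulokinase rebuild the acceptor. Several of these enzymes are switched on in the light through thioredoxin, and an alga supplied with acetate can also grow on that carbon source.

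Levels are in FPKM, which corrects a fragment count for transcript length and for library size, with 1 value per gene and condition. Each value carries confidence bounds of unstated level. Although 4 biological replicates per condition are named in the design text, single replicates were not analysed here, so no difference has a replicate check and no p-value was computed. A call of higher or lower required log2((a + 1)/(b + 1)) of at least 1 in size and deposited bounds that stood apart, and "rose" and "fell" are kept for called genes. Total FPKM lay between 720944 and 886096 per condition, and sequencing depth is unknown. FPKM is a share of the messenger RNA of a bulk culture, so fewer cells with a transcript and less of it per cell cannot be told apart. Of 13 symbols for gamete and zygote markers, 7 were in the table. FUS1 was listed at 0 in all 8 conditions, and GSP1, the only one past the filter, stood at 1.63 FPKM at 0 h against 6.35 in late and 5.97 in early replete cells. Among those under the filter, EZY1 was higher at 0 h (0.293 FPKM against 0.00497 and 0) and ZYS3 lower (0.00995 against 0.207 and 0.398). These markers thus had no common direction.

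In zinc-deficient cells 4 of the 9 Calvin cycle transcripts, PGK1, TRK1, RPI1 and PRK1, were lower than in both replete cultures, 0 were higher and 5 were not called. Over all 11451 genes tested, 5.76% were lower and 5.58% higher against both replete cultures. Against each replete culture alone the same 4 members were lower, beside 8.82% of all genes against the early culture and 7.64% against the late one. The calls of PRK1, and that of RPI1 against late replete cells (log2 ratio -1.07), lay near the threshold. Rescaling the conditions by median ratios ended both against late replete cells, as rescaling to equal totals ended that of PRK1 against early ones. Against early replete cells RPI1 had a log2 ratio of -1.41, and neither rescaling ended that call. The median log2 ratio of the 9 members was -0.84 against early and -0.84 against late replete cells, where the median over all tested genes was -0.09 and -0.04. After zinc returned the members separated in time. Transketolase rose by 1.5 h, PGK1 fell further at that time before it rose, and at 24 h all 9 lay above the mean of their replete values.

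**Figure D1:**
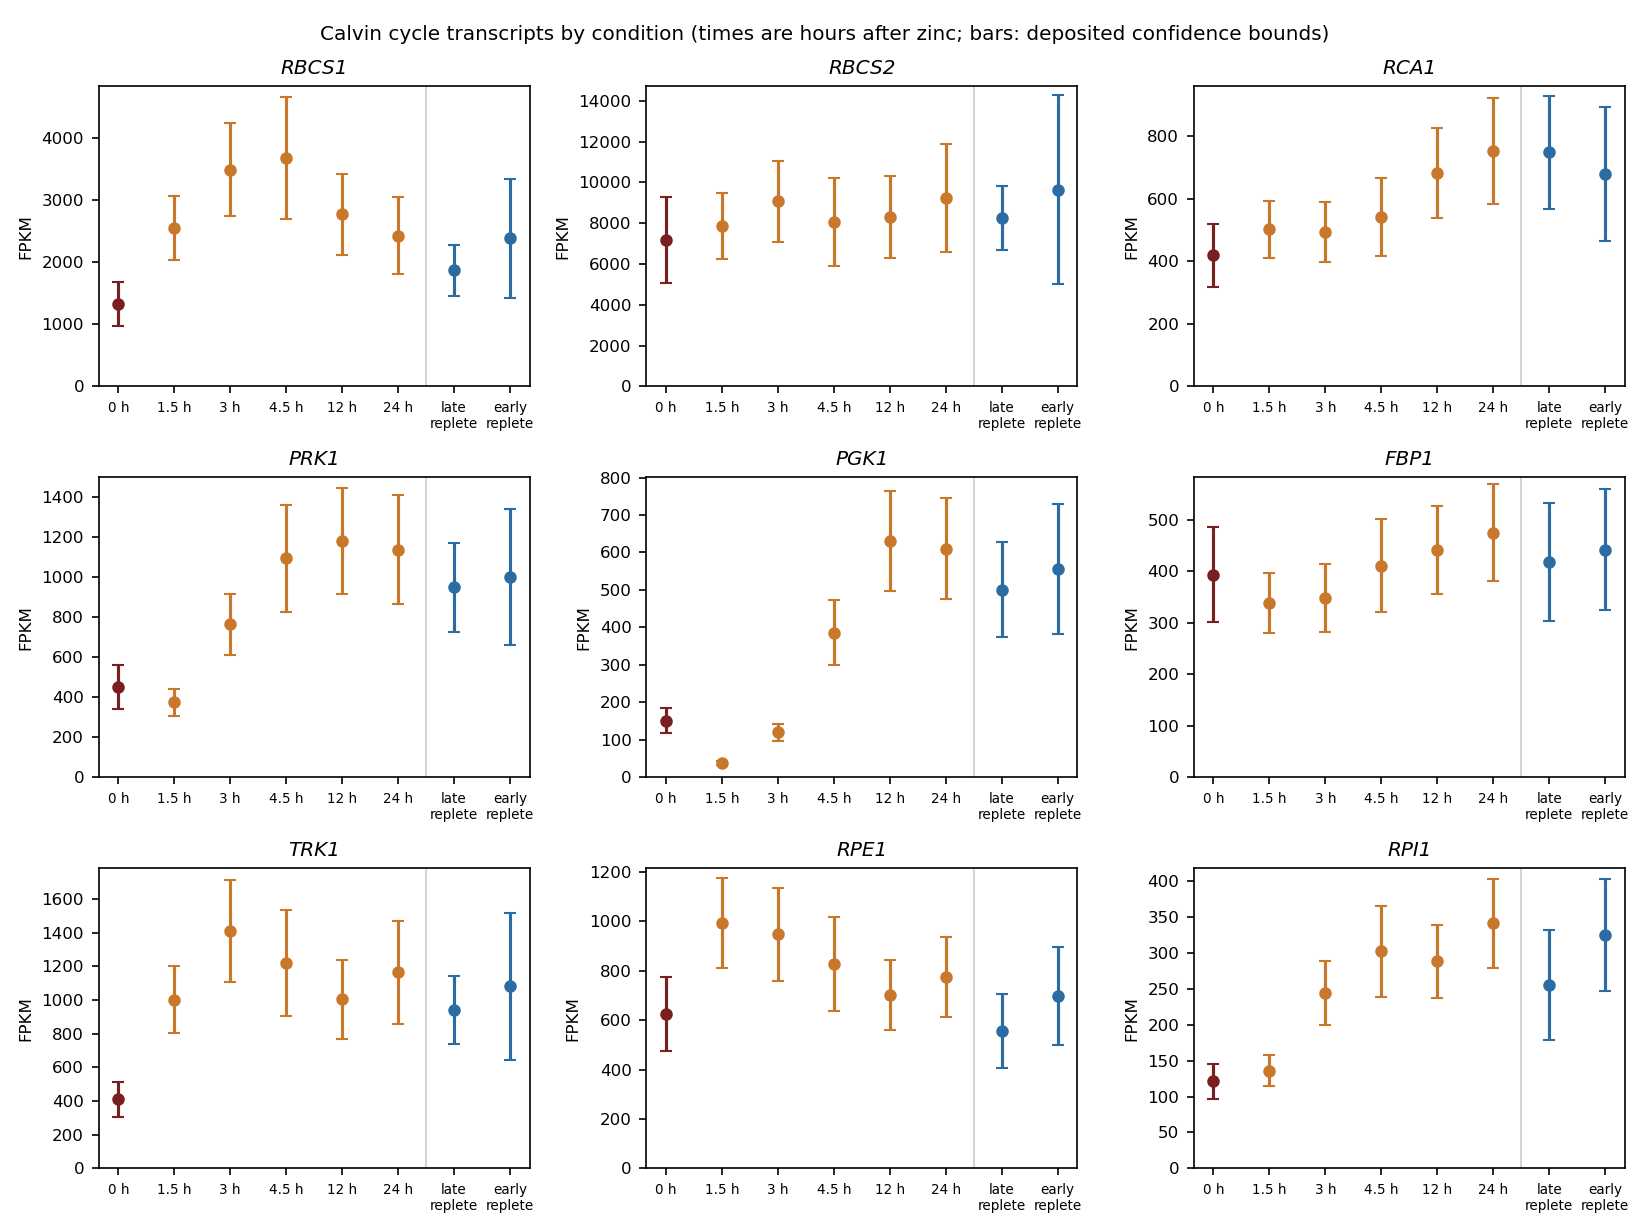
Deposited FPKM of the 9 Calvin cycle transcripts (vertical axes, linear from 0) at 6 times after zinc addition and in late and early replete cells, with whiskers for the deposited bounds. PGK1 has its lowest point at 1.5 h (37.4 FPKM), while TRK1 and RPE1 are already above their 0 h level there.

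The carboxylation stage held the most abundant members. RBCS2, the higher of both small subunit copies, stood at 7185 FPKM at 0 h, 7865 at 1.5 h, 9060.3 at 3 h, 8059 at 4.5 h, 8290.0 at 12 h and 9229 at 24 h, against 8245 in late and 9627 in early replete cells. RBCS2 was called in no comparison. Its highest value was 1.34 times its lowest, the narrowest range among the members, and by mean level it was the 12th most abundant transcript of the table.

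RBCS1, the other small subunit copy, changed more. It stood at 1332 FPKM at 0 h (bounds 978 to 1685), 2560.4 at 1.5 h, 3498 at 3 h, 3685 at 4.5 h (bounds 2708 to 4662), 2773 at 12 h and 2431 at 24 h, against 1869 in late and 2387 in early replete cells. At 0 h the bounds overlapped those of both replete cultures, so deficiency was not a call. RBCS1 rose against 0 h at 3, 4.5 and 12 h, by log2 ratios of 1.39, 1.47 and 1.06, and median-of-ratios rescaling ended the call at 12 h (0.999). At 1.5 h the bounds were already apart from 0 h but the log2 ratio of 0.94 was under the threshold, and at 24 h it was 0.87.

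RBCS1 therefore made up a varying share of the pair. It was 15.6% of the summed FPKM of both copies at 0 h, 24.6% at 1.5 h, 27.9% at 3 h, 31.4% at 4.5 h, 25.1% at 12 h and 20.9% at 24 h, against 18.5% in late and 19.9% in early replete cells. The highest share was at 4.5 h and the lowest at 0 h, but the extremes that the deposited bounds allow overlap (21.0% to 44.1% at 4.5 h and 9.53% to 24.9% at 0 h). The sum of both copies was 12558 FPKM at 3 h, against 8517 at 0 h, or 1.42% of total FPKM at 3 h against 1.18% at 0 h. The copies lie next to each other on chromosome 2, RBCS1 (Cre02.g120100) at 6936683 to 6941921 and RBCS2 (Cre02.g120150) at 6941968 to 6943439, with 46 bases between their spans. They encode nearly identical proteins, and how fragments that match both were counted was not stated, so the split between them is uncertain. RBCS1 has the longer span, and the size of its share also depends on the transcript length taken for each copy, which was not examined.

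**Figure D2:**
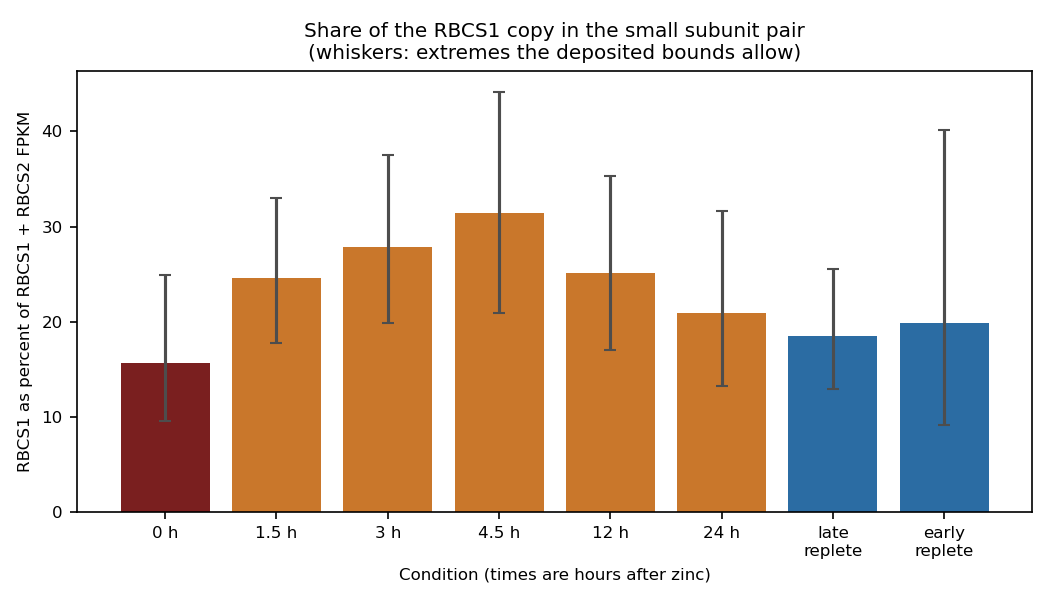
RBCS1 as a percent of the summed RBCS1 and RBCS2 FPKM (bars from 0) in each condition, with whiskers for the extremes that the deposited bounds of both copies allow. The share is 15.6% at 0 h and 31.4% at 4.5 h, and all whiskers are wide.

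RCA1, rubisco activase, frees rubisco from bound sugar phosphates. It stood at 419 FPKM at 0 h, 503 at 1.5 h, 494 at 3 h, 541 at 4.5 h, 684 at 12 h and 753 at 24 h, against 750.0 in late and 680 in early replete cells. At 0 h the bounds were apart from the late replete culture but not from the early one, and the log2 ratios of -0.84 and -0.70 were under the threshold. By point values RCA1 was the slowest of the carboxylation genes to approach the replete level, but its bounds already overlapped both replete cultures at 1.5 h. It was called in no comparison, although its bounds at 12 and 24 h were apart from those at 0 h (log2 ratios 0.70 and 0.84). RCA1 (Cre04.g229300) spans 3728598 to 3732872 on chromosome 4.

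The reduction stage is represented by PGK1, phosphoglycerate kinase, which phosphorylates 3-phosphoglycerate with ATP. PGK1 stood at 151 FPKM at 0 h (bounds 118 to 185), 37.4 at 1.5 h (bounds 31.6 to 43.2), 120.0 at 3 h, 386 at 4.5 h, 631 at 12 h and 610.1 at 24 h, against 501 in late and 556 in early replete cells. The lowest value was thus reached after zinc had been added, not in deficiency. In order of level, 1.5 h was lowest with bounds apart from all others, 3 h and 0 h followed with overlapping bounds, and 4.5 h, both replete cultures, 24 h and 12 h each overlapped their next neighbour.

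PGK1 had the largest ratio of the 9 members in deficiency, at 1.5 h, in both following steps, and at 12 and 24 h against 0 h. At 0 h it was 3.31-fold lower than in late and 3.67-fold lower than in early replete cells (log2 ratios -1.72 and -1.87). It fell at 1.5 h against 0 h by 1.99 on the log2 scale, to 13.4-fold and 14.9-fold below the late and early replete levels. Against 1.5 h it rose by 1.66 at 3 h, and against 3 h it rose by 1.68 at 4.5 h. Against 0 h it was higher by 1.34 at 4.5 h, 2.05 at 12 h and 2.00 at 24 h. By FPKM it ranked 410 among all genes at 0 h, 1438 at 1.5 h and 170 at 12 h. PGK1 (g11700) spans 1638740 to 1643130 on chromosome 11.

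The regeneration stage showed both early and late risers. TRK1, transketolase, moves short carbon units between sugar phosphates. It stood at 409 FPKM at 0 h (bounds 307 to 511), 1003 at 1.5 h (bounds 804 to 1201), 1410.3 at 3 h, 1218 at 4.5 h, 1003 at 12 h and 1164 at 24 h, against 939 in late and 1083 in early replete cells. The 0 h value was the lowest with bounds apart from all other conditions, and by 1.5 h the level lay between both replete values. TRK1 was called lower at 0 h against late and early replete cells (log2 ratios -1.20 and -1.40) and rose against 0 h at all 5 times, by 1.29 at 1.5 h and 1.78 at 3 h. TRK1 (Cre02.g080200) spans 984214 to 988819 on chromosome 2.

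RPE1, ribulose phosphate epimerase, was the one member whose level in deficiency lay between both replete values. It stood at 626 FPKM at 0 h, 995 at 1.5 h, 948 at 3 h, 826 at 4.5 h, 702 at 12 h and 775 at 24 h, against 556 in late and 698 in early replete cells. Its highest value was at 1.5 h, where the bounds (812 to 1178) were apart from those at 0 h (475 to 776) and from those of the late replete culture (405 to 708). The log2 ratio of 0.67 against 0 h was under the threshold and RPE1 was called in no comparison. RPE1 (Cre12.g511900) spans 1825706 to 1828406 on chromosome 12.

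RPI1, ribose phosphate isomerase, makes the ribulose phosphate that phosphoribulokinase uses. It stood at 122 FPKM at 0 h, 136 at 1.5 h, 244 at 3 h, 302 at 4.5 h, 289 at 12 h and 342 at 24 h, against 256 in late and 325 in early replete cells. The 0 h and 1.5 h values overlapped in their bounds and all later times were above them. RPI1 was called lower at 0 h against late and early replete cells (log2 ratios -1.07 and -1.41) and rose against 0 h at 4.5, 12 and 24 h, by 1.31, 1.24 and 1.48. At 3 h its FPKM was 2.01 times that at 0 h, and with the pseudocount the log2 ratio of 0.9995 fell just short of a call. RPI1 (Cre03.g187450) spans 5660281 to 5661787 on chromosome 3.

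PRK1, phosphoribulokinase, closes the cycle by making ribulose bisphosphate. It stood at 451 FPKM at 0 h (bounds 341 to 560), 374 at 1.5 h (bounds 308 to 439), 763 at 3 h, 1092 at 4.5 h, 1178 at 12 h and 1135 at 24 h, against 948 in late and 999 in early replete cells. Like PGK1 it had its lowest value at 1.5 h, but for PRK1 the bounds at 1.5 h overlapped those at 0 h. PRK1 was called lower at 0 h against late and early replete cells (log2 ratios -1.07 and -1.15), rose at 3 h against 1.5 h by 1.03, and was higher than at 0 h by 1.27 at 4.5 h, 1.38 at 12 h and 1.33 at 24 h. Either rescaling of the conditions ended the call at 3 h against 1.5 h, with log2 ratios of 0.96 for median ratios and 0.85 for equal totals. PRK1 (Cre12.g554800) spans 7636065 to 7639700 on chromosome 12.

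FBP1, fructose bisphosphatase, removes a phosphate from fructose bisphosphate. It stood at 393 FPKM at 0 h, 339 at 1.5 h, 348 at 3 h, 411 at 4.5 h, 441 at 12 h and 474 at 24 h, against 417 in late and 442 in early replete cells. Its bounds overlapped in all the comparisons made here, and its highest value was 1.40 times its lowest. FBP1 (Cre12.g510650) spans 1935474 to 1938770 on chromosome 12.

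Counted over the 9 members, calls against 0 h were 1 higher (TRK1) and 1 lower (PGK1) at 1.5 h, where 12% of all tested genes were higher and 9.24% lower, so the members' counts there were near the background. At 3 h 2 were higher (RBCS1 and TRK1) and 0 lower, where 10.4% of all tested genes were higher and 665 of 11467 lower. These counts were not far from the background. At 4.5 h 5 were higher (RBCS1, PRK1, PGK1, TRK1 and RPI1) and 0 lower, where 10.2% of all tested genes were higher and 747 of 11466 lower. The count of lower members was near the background there too. The same 5 were higher at 12 h, where 7.25% of genes were higher and 6.31% lower, and median-of-ratios rescaling ended the call of RBCS1. All but RBCS1 of these 5 were higher at 24 h, where 8.49% of genes were higher. The median log2 ratio of the members was 0.16 at 1.5 h, 0.60 at 3 h, 1.27 at 4.5 h, 1.06 at 12 h and 0.87 at 24 h, while that of all tested genes stayed between 0.02 and 0.11. All 5 comparisons share the 0 h value, so an error in that value would enter each of them.

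Between successive times from 1.5 h on, all 3 calls came by 4.5 h, after those at 1.5 h against 0 h (TRK1 higher and PGK1 lower). At 3 h against 1.5 h 2 members rose (PRK1, whose call either rescaling ended, and PGK1), as did 4.3% of all tested genes. At 4.5 h against 3 h only PGK1 rose, one of 29 genes (0.253%) of 11481. No member was called at 12 h against 4.5 h, where 3.02% of all genes were called in either direction, or at 24 h against 12 h (0.663%). At 24 h 0 of 9 members were called against early or late replete cells, beside 0.584% and 1.4% of all genes, and none of the 9 differed between the late and the early replete culture by the call rule (background 1.43%). The largest log2 ratio at 24 h against late replete cells was that of RPE1, at 0.48, with overlapping bounds.

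Set against the mean of both replete values, the members were most uneven at 1.5 h. PGK1 was lowest at 28.7% and RPE1 highest at 99.8% at 0 h, PGK1 at 7.08% and RPE1 at 159% at 1.5 h, and PGK1 at 22.7% and RBCS1 at 164% at 3 h. At 4.5 h the range was 73.1% (PGK1) to 173% (RBCS1), at 12 h 92.8% (RBCS2) to 130% (RBCS1), and at 24 h 103% (RBCS2) to 124% (RPE1). The ratio between the highest and the lowest member was 1.20 at 24 h, against 22.4 at 1.5 h. RBCS1 and TRK1 first reached the lower of both replete values at 1.5 h, RBCS2 at 3 h, PRK1 and RPI1 at 4.5 h, and RCA1, PGK1 and FBP1 at 12 h. RPE1 was above it at 0 h. This order is of point values only, since RBCS1, RBCS2 and FBP1 already overlapped both replete cultures in their bounds at 0 h. RCA1 did so at 1.5 h. RBCS2 was below its lower replete value again at 4.5 h (8059 FPKM against 8245 in late replete cells).

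**Figure D3:**
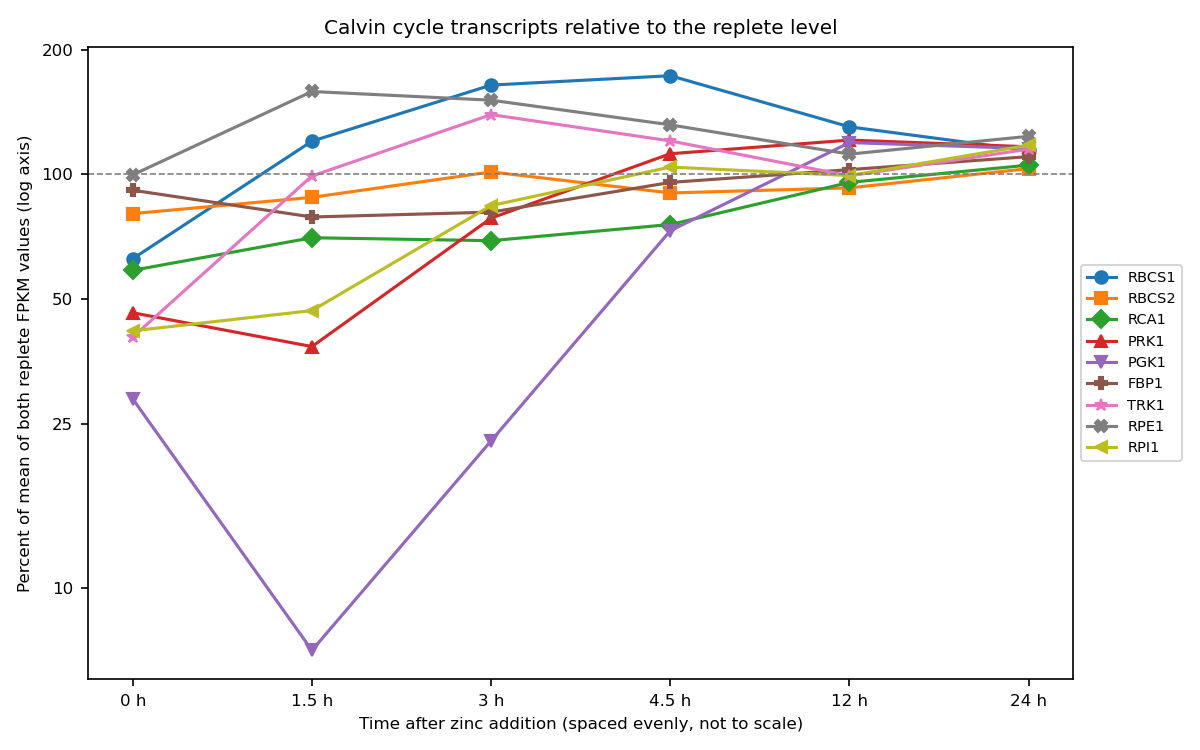
FPKM of each Calvin cycle transcript as a percent of the mean of its late and early replete values (log vertical axis) at 6 times after zinc addition, spaced evenly. The lines spread from 7.08% (PGK1) to 159% (RPE1) at 1.5 h and lie between 103% and 124% at 24 h.

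The members did not share one profile over the 8 conditions. Pearson's r of log2(FPKM + 1) between pairs of members ranged from -0.61 to 0.96, with a median of 0.54 over 36 pairs, of which 6 were negative. The highest r was that of RPI1 and PRK1 (0.96), followed by FBP1 and PGK1 (0.93) and PGK1 and PRK1 (0.91), and TRK1 and RBCS1 reached 0.88. The lowest was that of RPE1 and PGK1. These values describe 8 conditions that share their library scaling and follow each other in time, and carry no test. FBP1's highest value was 1.40 times its lowest, with overlapping bounds in all comparisons made, so its r values rest on differences within those bounds. RPE1 was called in no comparison either.

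Among 1375 genes with a symbol, a mean FPKM of at least 10 and usable estimates throughout, the 5 whose profile was most like the mean profile of the members were RBD3 (r = 0.987 over 8 conditions), LHCA5 (0.987), LHCA4 (0.986), LHCB5 (0.986) and PDH2 (0.985). LHCA4, LHCA5 and LHCB5 are light-harvesting antenna proteins of the photosystems. LHCA5 stood at 426 FPKM at 0 h, 478 at 1.5 h, 924 at 3 h, 1216 at 4.5 h, 1619 at 12 h and 1551 at 24 h, against 1264 in late and 1449 in early replete cells. Most like PGK1 alone were PRX1, a peroxiredoxin (0.990), APE1 (0.988) and MDH3, a malate dehydrogenase (0.984). PRX1 was also lowest at 1.5 h, at 366 FPKM against 762 at 0 h. Most like RBCS1 were ELI2 (0.975), GSA1, an enzyme of chlorophyll precursor synthesis (0.975), and MTT1 (0.969). GSA1 stood at 676 FPKM at 4.5 h against 110 at 0 h. The genes most like PGK1 and RBCS1 were looked up after the members' values had been seen.

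In a list drawn up for other enzymes and regulators of the cycle, 3 of 9 tested genes were lower at 0 h than in both replete cultures. None was higher, beside 5.76% lower and 5.58% higher of all tested genes. The median log2 ratio of the list was -0.89, against -0.07 over all tested genes. TPI1, triose phosphate isomerase, was at 42.2 FPKM at 0 h against 103 in late and 127 in early replete cells. TAL1, transaldolase, is not a step of the cycle as described above, though it was in this list and counted among its calls. It was at 75.2 FPKM at 0 h against 325 and 282, and FBP2 at 8.62 FPKM at 0 h against 147 and 65.6. FBA3, an aldolase and the most abundant gene of this list, was at 1425 FPKM at 0 h against 2999 and 3075. It was called lower against late replete cells (log2 ratio -1.07) but not against early ones. Median-of-ratios rescaling ended that call (-0.999).

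At 1.5 h this list had 0 calls in either direction and a median log2 ratio of -0.49 against 0 h, the lowest among the lists with more than 3 tested genes. TPI1 stood at 27.6 FPKM at 1.5 h against 42.2 at 0 h, TAL1 at 46.3 against 75.2, and CP12 at 618 against 994. FBA3 stood at 1274 against 1425, while FBA2 (14.2 against 14.1) and PGK2 (2.82 against 2.15) went the other way. CP12 is a small protein that joins phosphoribulokinase and glyceraldehyde phosphate dehydrogenase in an inactive complex. At 12 h TPI1, TAL1 and FBP2 had risen (103, 341 and 101 FPKM), and 3 of 9 genes were called higher and 0 lower, where 7.25% of all tested genes were higher and 6.31% lower. SBP1 (Cre03.g185550) was looked at after the members' values had been seen, because its symbol is one used for sedoheptulose bisphosphatase, but the table gives no description. It stood at 866 FPKM at 0 h, 1039 at 1.5 h, 1399 at 3 h, 1442 at 4.5 h, 1496 at 12 h and 1811 at 24 h, against 1658 in late and 1622 in early replete cells, and was called only at 24 h against 0 h (log2 ratio 1.06).

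Several genes for rubisco assembly and modification rose within 1.5 h. At 1.5 h 6 of 9 were called higher than at 0 h and 0 lower (median log2 ratio 1.23), beside 12% higher and 9.24% lower of all tested genes. They were the 6 chloroplast chaperonin and co-chaperonin genes of the list. CPN60A, a subunit of the chaperonin that folds rubisco large subunits among other proteins, stood at 270.2 FPKM at 1.5 h against 55.1 at 0 h. CPN60B2 stood at 403 FPKM at 1.5 h against 97.0 at 0 h, and CPN60B1 at 104 against 31.2. These 1.5 h values were above the late and early replete ones (78.3 and 118 FPKM for CPN60A, 135 and 197 for CPN60B2, 39.6 and 54.3 for CPN60B1). In deficiency 0 of 9 were called against both replete cultures, near the background of 5.76% lower and 5.58% higher. Against early replete cells alone 2 were lower, beside 8.82% of all tested genes, and equal totals ended both calls. CPN11, a co-chaperonin, lay at the threshold with a log2 ratio of 1.00 and lost its call with either rescaling of the conditions. The 6 were higher at 3 and 4.5 h too, where 10.4% and 10.2% of all tested genes were higher. Equal totals ended the calls of CPN11 at both times (0.85 and 0.81) and of CPN23 at 4.5 h (0.90), and median ratios that of CPN11 at 4.5 h (0.96). At 12 h 0 of 9 were called (median 0.46), where 7.25% of all tested genes were higher and 6.31% lower, so this count was near the background. At 24 h 2 of 9 were higher than at 0 h (median 0.54), CPN60A by 1.04 and CPN60B2 by 1.03, beside 8.49% of all tested genes. Either rescaling ended both calls. RMT1 and RMT2, methyltransferases named for rubisco, and BSD2 had no call in any of these comparisons.

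Photorespiratory genes, which recycle the product of rubisco's reaction with oxygen, had few calls. Of 13 tested, none was higher and 1 was lower at 0 h than in both replete cultures (median -0.19), 2 were higher and 2 lower at 1.5 h against 0 h (median -0.06), and 2 were higher and 1 lower at 12 h (median 0.25). Over all tested genes 5.58% were higher and 5.76% lower in deficiency, 12% and 9.24% at 1.5 h, and 7.25% and 6.31% at 12 h, so these counts were near the background. SGA1, an aminotransferase, fell to 12.4 FPKM at 1.5 h against 95.7 at 0 h, and HPR1, hydroxypyruvate reductase, to 15.3 against 40.3. AGT1, another aminotransferase, was at 54.1 FPKM at 0 h against 158 in late and 147 in early replete cells, and rose to 112 FPKM at 1.5 h (log2 ratio 1.04), a call that equal totals ended (0.93).

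Glycolytic and oxidative pentose phosphate genes gave 3 higher and 1 lower of 20 tested in deficiency against both replete cultures (median -0.02, and 0.13 after rescaling to equal totals), where 5.58% of all tested genes were higher and 5.76% lower. The lower gene was PYK5, named for pyruvate kinase, and equal totals ended its call. GLD2, glucose 6-phosphate dehydrogenase, was at 38.1 FPKM at 0 h against 7.53 in late and 11.6 in early replete cells. GND1, 6-phosphogluconate dehydrogenase, was at 189 FPKM at 0 h against 54.7 and 60.2, and GAP1, a glyceraldehyde phosphate dehydrogenase, at 631 against 210.3 and 213. At 12 h 1 of 20 was called higher than at 0 h and 4 lower, where 7.25% of all tested genes were higher and 6.31% lower. The count of higher genes was thus near the background. GLD2, GND1 and GAP1 were among the lower ones, at 10.7, 54.0 and 232 FPKM. They were named for their calls in deficiency, and both comparisons share the 0 h value. At 1.5 h 2 of 20 were higher and 6 lower (median -0.19), PYK4 and GLD1 among the lower ones, where 12% of all tested genes were higher and 9.24% lower, so the count of higher genes was near the background.

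Of 25 symbols tried for the thioredoxin system 3 were found. One of them, FTR1, names an iron permease in this alga and is not read here as a thioredoxin enzyme. NTR1 and NTR3, named for thioredoxin reductases, were not called in deficiency. NTR3 rose at 12 h to 21.5 FPKM against 8.53 at 0 h, and NTR1 stood at 48.4 against 47.0.

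**Figure D4:**
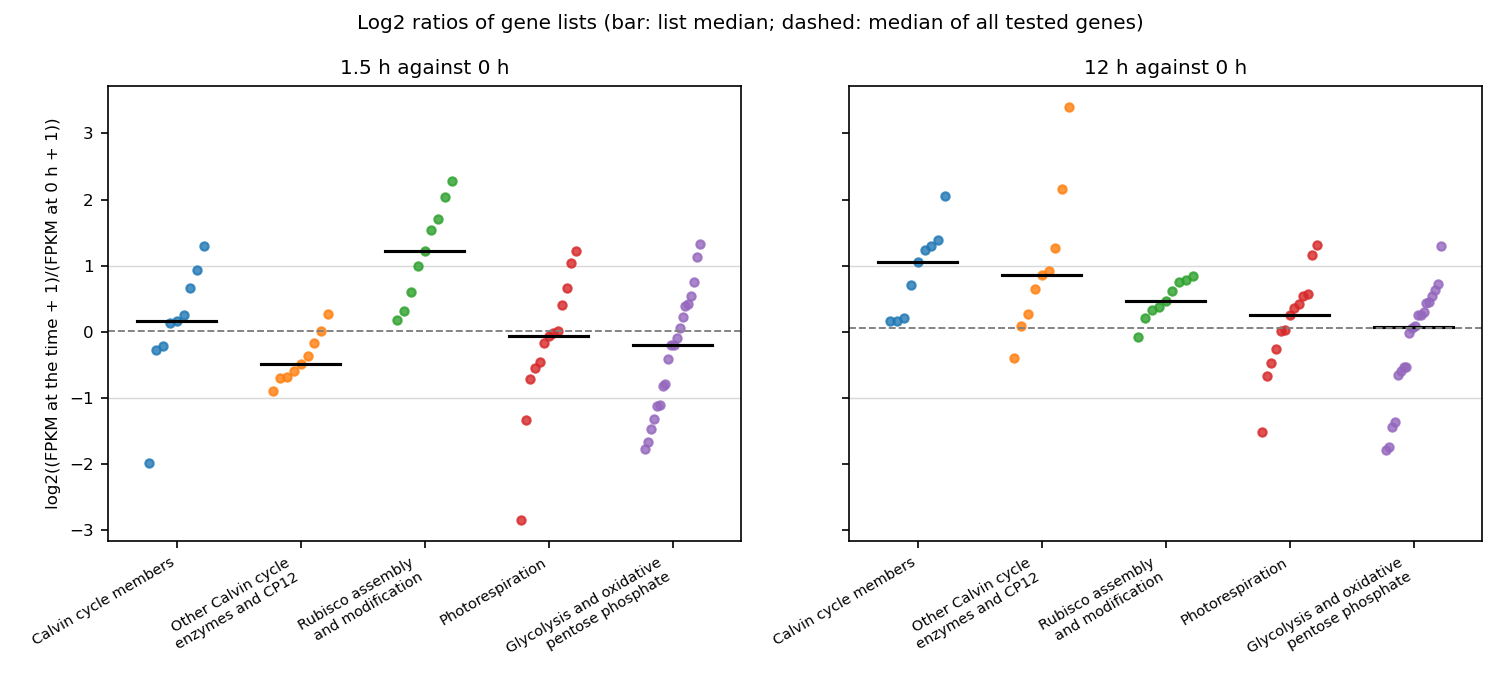
Log2 ratios against 0 h (vertical axis) at 1.5 h and 12 h for the 9 Calvin cycle members and for tested genes of 4 other lists, 1 point per gene, with a bar at each list's median and a dashed line at the median of all tested genes. At 1.5 h PGK1 is the lowest member at -1.99 and the rubisco assembly list has the highest median (1.23), and at 12 h the Calvin cycle members have the highest median (1.06).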

How the data were processed

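RNA was sequenced from a stranded messenger RNA library kit, per the labels' protocols. The submitters' processing notes name TopHat2 and Cuffdiff. Not given in the sources used here are versions, genome build, annotation, the handling of fragments that match several genes and the combining of replicates. The deposited FPKM values, with lower and upper bounds and a status, were taken as the authors gave them, with 1 value per condition. All columns of per-condition values were matched by name (0 left unused). With 1 value per condition no test was possible.

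Ratios were log2((a + 1)/(b + 1)), a pseudocount of 1 FPKM that understates changes of low genes. Calls needed a log2 ratio of at least 1 in size, bounds that did not overlap, both statuses OK and a mean FPKM of at least 1 over the 8 conditions. They were run over the whole table in 15 comparisons with Python 3.11.15, pandas 2.3.3 and numpy 2.4.6, and the rule was tested on simulated data. Deficiency against both replete cultures needed a call in the same direction against each, and its medians use the mean of both log2 ratios. The members and lists were chosen with earlier results of these data known. All 9 members are named, with up to 3 called genes per other list and comparison, by size. FBA2, FBA3, PGK2, CP12, CPN11, CPN23, CPN60A and CPN60B2 at 24 h, RMT1, RMT2, BSD2, NTR1, NTR3, PYK5, AGT1, TPI1 and TAL1 at 1.5 h, SBP1, FUS1, GSP1, EZY1, ZYS3 and the genes most like PGK1 and RBCS1 were named outside that rule.

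Coordinates are those of the table, counted from 1. The spans of 8 of 9 members equal those of RefSeq's gene table for assembly Chlamydomonas_reinhardtii_v5.5, in which PGK1's identifier was not matched, and no member's span overlapped another gene's. Symbols come from the table, which gives one to 2756 of 17737 genes.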

Additional observations from a re-analysis of the deposited data

How the results depend on the processing

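The member counts kept within 1.5 times their reported value with a pseudocount of 0.1 or 5 FPKM, with no filter on mean FPKM or a mean of at least 5, and with no rule on bounds, in all 15 comparisons. Median-of-ratios rescaling left 2 members called against late and 2 against both replete cultures (PGK1 and TRK1), where PRK1 and RPI1 came just under the threshold against late replete cells. It also ended the call of RBCS1 at 12 h. Either rescaling left 1 call between 1.5 and 3 h, where PRK1 dropped out, and equal totals also ended PRK1's call in deficiency against early replete cells. A fold threshold of 1.5 gave 4 calls at 1.5 h (RBCS1 and RPE1 added), where 41.4% of all tested genes were called in either direction. It gave 4 at 3 h (PRK1 and RPI1 added), beside 34.9% of all tested genes, and 1 between 4.5 and 12 h (PGK1), beside 15.8%. These counts were near the background. A fold threshold of 3 left 1 call (PGK1) against early, late and both replete cultures, beside 5.95%, 6.14% and 4.7% of all tested genes. Against 0 h it left 1 at 1.5, 3, 12 and 24 h and 0 at 4.5 h, beside 8.51%, 5.28%, 4.94%, 5.52% and 5.15%. Between 1.5 and 3 h it left 1, beside 1.07%. Equal totals moved the median of all genes by 0.23 for 0 h against early replete cells and by -0.22 for 3 h against 0 h, and the members' median minus that of all genes was then -0.68 and 0.42, against -0.75 and 0.49 as deposited. Of 126 member ratios, 14 changed sign with equal totals and 2 with median-of-ratios factors, none of them a called one. The cause of these changes was not tested. No paired analysis was possible because each condition has 1 column and the columns carry no replicate numbers, and for the same reason no replicate could be left out. Depth is unknown, so how far it limits these values cannot be given. Over all genes, the calls at 0 h against both replete cultures numbered 1299 as reported, 675 with a pseudocount of 5 FPKM, 848 once genes averaging under 5 FPKM were left out, 2594 at a fold threshold of 1.5 and 538 at 3. At 4.5 h against 3 h they numbered 40 as reported, and 131 and 16 with pseudocounts of 0.1 and 5 FPKM. Equal totals also turned the split of calls over all genes: 759 were higher and 1065 lower at 3 h against 0 h, where 1188 were higher and 665 lower as deposited, and at 0 h against both replete cultures 778 were higher and 513 lower, where 639 were higher and 660 lower as deposited.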
